A study of Mus musculus with 16 samples.

Results

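The nuclear tRNAs that read the CGN codons of arginine were 10 isodecoders, tRNAs with the same anticodon and slightly different bodies. They were all rows named tRNA-Arg-ACG, tRNA-Arg-CCG or tRNA-Arg-TCG, with mitochondrial tRNAs and the rows named tRX left out. There were 3 with the ACG, 3 with the CCG and 4 with the TCG anticodon (written in DNA letters), among 819 rows of the fibroblast table and 821 rows of the heart table. All 10 passed the filter on low counts in both tables. Their abundance was measured by mim-tRNAseq, a full-length tRNA sequencing method, in 16 libraries from mice or mouse cells. The study they belong to uses an editor of mitochondrial DNA and a mouse model with a mutated mitochondrial tRNA-Ala gene. The fibroblast set held 2 cell passages each of the mouse embryonic fibroblast (MEF) lines Cl_1, Cl_2 and Cl_3 and of the line Ctrl_1. The heart set held 4 mice given AAV9-DdCBE (10X for mice 17 and 18, 5X for mouse 25, 2X for mouse 26) and 4 given AAV9-GFP (5X for mice 5 and 6, 3X for mice 14 and 19). A DdCBE is a protein editor that converts cytosine in mitochondrial DNA, AAV9 is a viral vector that reaches the heart, and GFP is a fluorescent control protein. All 8 hearts came from the mouse model that the labels call m.5024T, so the AAV9-GFP mice belong to it as well. The labels give no genotype, clone origin or treatment for the MEF lines, no age for the mice, and no meaning for Ctrl, Cl or the X values. Ctrl_1 was 1 line, and replicates of a MEF line were passages, so p-values in the MEFs measure the spread between passages. The tables hold tRNA rows only, so no marker gene of fibroblasts or heart cells could be checked.

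Arginine has CGN and AGR codons. In the nucleus-encoded set the ACG, CCG and TCG tRNAs serve the CGN codons, and the TCT and CCT tRNAs serve the AGR codons. The first anticodon base of tRNA-Arg-ACG is converted from adenosine to inosine by the ADAT deaminase, which lets the tRNA read CGU, CGC and CGA. The CCG anticodon pairs with CGG. The TCG anticodon pairs with CGA and can wobble to CGG. Mitochondria have their own single tRNA-Arg, which reads CGN codons there. RefSeq lists 6 ACG, 3 CCG and 5 TCG nuclear genes in the mouse, 14 in all, each 73 bases long. These genes could not be matched by name to the isodecoder numbers, and no sequence of them was held in the sequence tables used here. Levels are given as CPM, a transcript's counts relative to its library's total, corrected by TMM, a factor per library taken from the bulk of the transcripts. They are not divided by length.

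Library totals ran between 1473330 and 4375975 counts for MEFs, and between 1540287 and 3037178 for hearts. Mitochondrial tRNA made up 2.14% to 3.01% of the Cl libraries and 3.41% to 3.74% of those from Ctrl_1. In the hearts it took 59.9% in the 10X AAV9-DdCBE heart of mouse 17 and 44.5% in that of mouse 18. It took 38.9% to 39.2% in the other AAV9-DdCBE hearts and 37.4% to 43.3% in the AAV9-GFP hearts. No member had fewer than 939 counts in any library, and the largest had 74607.

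In the MEFs the CGN readers moved in different directions. tRNA-Arg-CCG-3 was 1.91-fold higher in the average Cl line than in Ctrl_1. tRNA-Arg-ACG-2, tRNA-Arg-TCG-1 and tRNA-Arg-TCG-2 were also higher, and the abundant tRNA-Arg-ACG-1 and tRNA-Arg-ACG-3 were lower. In all, 4 of 10 members were higher and 2 lower (edgeR quasi-likelihood test, Benjamini-Hochberg adjusted p under 0.05 over 201 transcripts). Over all 201 transcripts tested, 22.9% were called higher and 25.4% lower. Of the 175 nuclear transcripts among them, 46 were higher and 38 lower. The number of lower members was near this background, and whether the number of higher members stands out from it was not tested. The members' log2 changes ran from -0.35 to 0.93 with a median of 0.03. The median was -0.0008 over all transcripts tested and 0.06 over the nuclear ones.

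**Figure D1:**
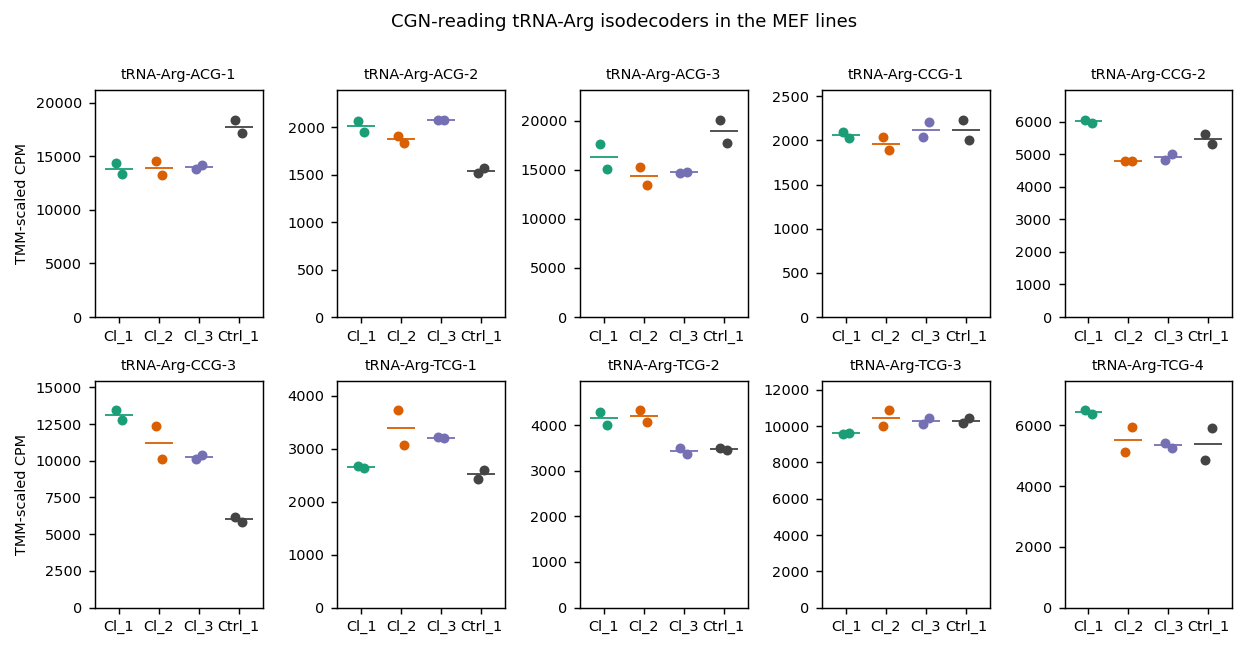
Level of each of the 10 CGN-reading isodecoders (TMM-scaled CPM, vertical axes from 0) in the MEF lines Cl_1, Cl_2, Cl_3 and Ctrl_1. Points are the 2 libraries of a line and bars their mean. The 6 Cl libraries lie above both Ctrl_1 libraries for tRNA-Arg-CCG-3 and tRNA-Arg-ACG-2, and below both for tRNA-Arg-ACG-1 and tRNA-Arg-ACG-3.

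Of the inosine-type tRNAs, tRNA-Arg-ACG-1 had 14363 and 13306 CPM in the Cl_1 libraries, 14564 and 13273 in those of Cl_2 and 13761 and 14143 in those of Cl_3, against 18396 and 17118 CPM in the Ctrl_1 libraries. Every Cl library was below both Ctrl_1 libraries. Averaged over the Cl lines the log2 change was -0.35 (SE 0.06, edgeR adjusted p = 0.00240), and it was -0.36, -0.35 and -0.35 in Cl_1, Cl_2 and Cl_3. tRNA-Arg-ACG-3, about as abundant, had 17629 and 15044 CPM in Cl_1, 15250 and 13451 in Cl_2 and 14710 and 14809 in Cl_3, against 20099 and 17714 CPM in Ctrl_1. The nearest libraries, 17629 CPM in Cl_1 and 17714 CPM in Ctrl_1, differed by less than the spread within either line. Its change was -0.32 (SE 0.08, edgeR adjusted p = 0.0145). The call was lost without either Cl_3 library (edgeR adjusted p = 0.0515 and 0.0583) and without replicate 1 of Ctrl_1 (-0.24, edgeR adjusted p = 0.123).

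tRNA-Arg-ACG-2 is the minor ACG isodecoder. It had 2066 and 1949 CPM in Cl_1, 1909 and 1834 in Cl_2 and 2077 and 2079 in Cl_3, against 1517 and 1570 CPM in Ctrl_1. It went the other way from its relatives, with all 6 Cl libraries above both Ctrl_1 libraries. The change was 0.36 (SE 0.07, edgeR adjusted p = 0.00406). It was 0.32 without replicate 1 of Ctrl_1, where the call was lost (edgeR adjusted p = 0.0526). As a share of ACG counts, which needs no scaling factor, tRNA-Arg-ACG-2 took 6.41% ± 0.319 over 6 Cl libraries, against 4.05% ± 0.367 over 2 from Ctrl_1 (SD). tRNA-Arg-ACG-1 took 44.8% ± 1.57 in the Cl libraries and 46.5% ± 0.742 in Ctrl_1, and tRNA-Arg-ACG-3 took 48.7% ± 1.70 and 49.4% ± 1.11, with overlapping libraries for both.

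The CCG isodecoders, which pair with CGG, held the largest change among the members. tRNA-Arg-CCG-3 had 13439 and 12798 CPM in Cl_1, 12357 and 10098 in Cl_2 and 10089 and 10379 in Cl_3, against 6145 and 5863 CPM in Ctrl_1. All 6 Cl libraries were above both Ctrl_1 libraries, with a gap wider than the spread within any line. The log2 change was 0.93 in the mean of the Cl lines (SE 0.08, edgeR adjusted p = 1.63e-04), 1.13 in Cl_1, 0.90 in Cl_2 and 0.77 in Cl_3. It stayed between 0.89 and 0.98 and past the threshold when any of the 8 libraries was left out. With the libraries of each line summed, it was the only member called (0.97, edgeR adjusted p = 0.0233), where 5 of 221 transcripts were called higher and 4 lower. Ctrl_1 is then 1 sample that is assumed to vary as the 3 Cl lines do, so this p holds no spread between control lines.

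The other CCG isodecoders did not pass the test averaged over the Cl lines. tRNA-Arg-CCG-1 averaged 2050 ± 102 CPM over 6 Cl libraries, against 2117 ± 165 CPM over 2 from Ctrl_1 (SD; log2 change -0.05, SE 0.08). tRNA-Arg-CCG-2 had 6064 and 5973 CPM in Cl_1, 4805 and 4782 in Cl_2 and 4839 and 5002 in Cl_3, against 5637 and 5312 CPM in Ctrl_1 (log2 change -0.07, SE 0.05). Its Cl_1 libraries were above Ctrl_1 and its Cl_2 and Cl_3 libraries below. With the mitochondrial rows left out, tRNA-Arg-CCG-2 was called lower (-0.14, edgeR adjusted p = 0.0459).

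Within the CCG pool the shares of the 3 isodecoders moved apart from those in Ctrl_1. tRNA-Arg-CCG-3 took 62.2% and 61.5% of CCG counts in Cl_1, 64.4% and 60.2% in Cl_2 and 59.5% and 59.0% in Cl_3, against 43.8% and 44.5% in Ctrl_1. It was the largest of the 3 in every library. For the library with the fewest CCG counts among the MEFs, replicate 2 of Cl_2 with 25506, the 95% Wilson interval was 59.6% to 60.8%, which covers counting error only. tRNA-Arg-CCG-2 took 27.9% ± 1.41 in the Cl libraries and 40.3% ± 0.0718 in Ctrl_1 (SD). tRNA-Arg-CCG-1 took 9.72% to 12.5% in the Cl libraries, against 15.2% and 15.9% in Ctrl_1. None of the 3 shares overlapped between the Cl and the Ctrl_1 libraries. Together they make up the whole CCG pool, so they are not independent, and how often shares of other tRNAs separated was not counted.

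**Figure D2:**
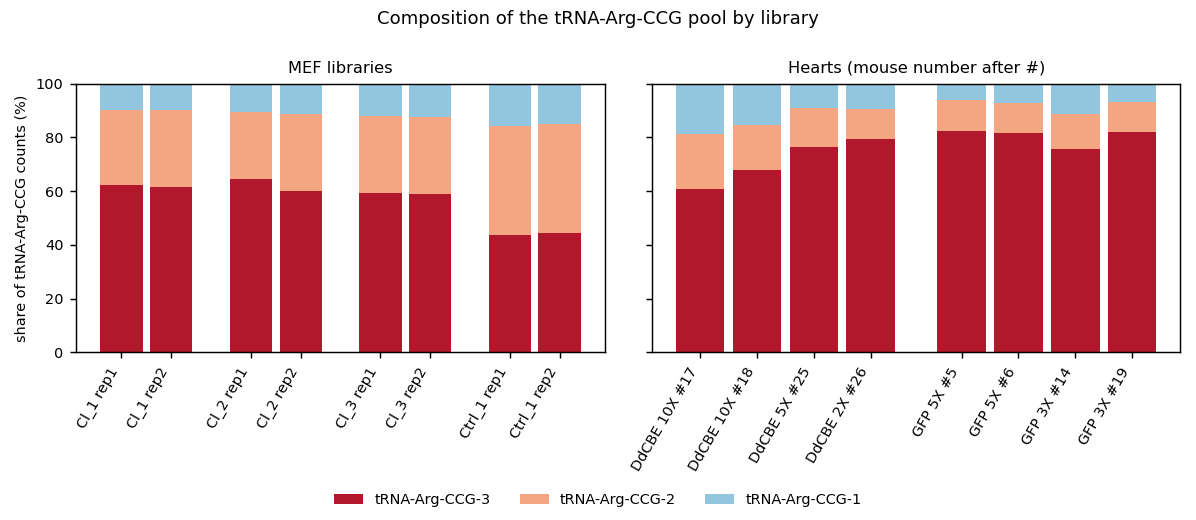
Share of tRNA-Arg-CCG counts (percent, stacked to 100) taken by tRNA-Arg-CCG-3, tRNA-Arg-CCG-2 and tRNA-Arg-CCG-1 in each MEF library (left) and each heart (right). tRNA-Arg-CCG-3 takes 59.0% to 64.4% in the Cl libraries against 43.8% and 44.5% in Ctrl_1, and 60.8% and 67.7% in the 10X AAV9-DdCBE hearts against 75.6% to 82.5% in the AAV9-GFP hearts.

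Of the TCG isodecoders, which pair with CGA, 2 of 4 passed the test, both with small changes. tRNA-Arg-TCG-1 had 2676 and 2638 CPM in Cl_1, 3727 and 3064 in Cl_2 and 3222 and 3197 in Cl_3, against 2430 and 2606 CPM in Ctrl_1 (log2 change 0.29, SE 0.08, edgeR adjusted p = 0.0248). All Cl libraries were above Ctrl_1, those of Cl_1 only just. tRNA-Arg-TCG-2 had 4295 and 4005 CPM in Cl_1, 4327 and 4060 in Cl_2 and 3496 and 3378 in Cl_3, against 3495 and 3445 CPM in Ctrl_1. Cl_3 overlapped Ctrl_1, and the change in the mean of the lines was 0.17 (SE 0.06, edgeR adjusted p = 0.0436). Both calls depended on single libraries. That of tRNA-Arg-TCG-2 was lost when any 1 of the 8 MEF libraries was left out (log2 change 0.15 to 0.19), and that of tRNA-Arg-TCG-1 in 6 of 8 such fits (0.22 to 0.35 over all 8), all but those without a Cl_2 library. With the mitochondrial rows left out, the changes were 0.22 for tRNA-Arg-TCG-1 (edgeR adjusted p = 0.0669) and 0.10 for tRNA-Arg-TCG-2 (edgeR adjusted p = 0.167). tRNA-Arg-TCG-3, the largest of the TCG set, averaged 10117 ± 491 CPM in the Cl libraries and 10304 ± 193 CPM in Ctrl_1 (log2 change -0.03, SE 0.05). tRNA-Arg-TCG-4 averaged 5770 ± 591 CPM in the Cl libraries and 5382 ± 732 CPM in Ctrl_1 (SD; log2 change 0.10, SE 0.09).

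Line by line, each Cl line was compared with the same 2 Ctrl_1 libraries, so the 3 comparisons are not independent. In Cl_1 3 members were higher and 1 lower, where 14.9% of all transcripts tested were called higher and 18.9% lower. In Cl_2 4 were higher and 3 lower, against 25.9% and 20.4% over all transcripts. In Cl_3 3 were higher and 2 lower, against 26.4% and 24.4%. tRNA-Arg-CCG-3 and tRNA-Arg-ACG-2 were called higher, and tRNA-Arg-ACG-1 lower, in each line. The members called in some lines only were tRNA-Arg-ACG-3 and tRNA-Arg-TCG-1 (Cl_2 and Cl_3), tRNA-Arg-TCG-2 (Cl_1 and Cl_2) and tRNA-Arg-CCG-2, which was lower in Cl_2 (-0.19, SE 0.06, edgeR adjusted p = 0.0366).

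A test of the difference among the 3 Cl lines themselves passed for 2 of 10 members, near the 24.4% called over all transcripts tested. tRNA-Arg-CCG-2 differed (edgeR F test, adjusted p = 0.0134), with changes against Ctrl_1 of 0.14 in Cl_1, -0.19 in Cl_2 and -0.15 in Cl_3. tRNA-Arg-TCG-2 differed too (edgeR F test, adjusted p = 0.0401), with 0.26 in Cl_1, 0.27 in Cl_2 and -0.01 in Cl_3. The order of tRNA-Arg-CCG-3 over the lines, from Cl_1 down to Cl_3, did not pass (edgeR F test, adjusted p = 0.0647). The test called 0 of 3 anticodon totals among the lines, where the unadjusted p was 0.0368 for the CCG total, and 1.43% of all anticodon totals.

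**Figure D3:**
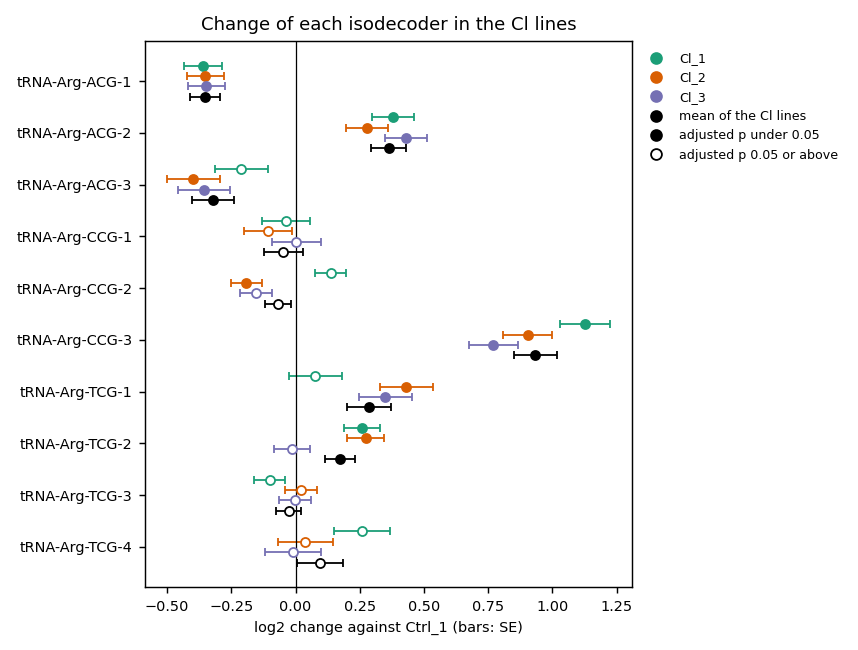
Log2 change of each CGN-reading isodecoder against Ctrl_1 in Cl_1, Cl_2, Cl_3 and their mean, with bars of 1 SE on each side; filled points have an edgeR adjusted p under 0.05. tRNA-Arg-CCG-3 lies between 0.77 and 1.13 in the 3 lines and tRNA-Arg-ACG-1 between -0.36 and -0.35.

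Counts were also summed per anticodon, which takes away any dependence on how reads were divided between near-identical isodecoders. These totals were scaled among 70 anticodon totals, and that scaling placed the Cl libraries 0.13 higher against Ctrl_1 on the log2 scale than the scaling of the single transcripts. The CCG total had 21657 and 20454 CPM in Cl_1, 19698 and 16901 in Cl_2 and 17955 and 18714 in Cl_3, against 13052 and 12326 CPM in Ctrl_1. It was 1.51-fold higher (log2 change 0.60, SE 0.06, edgeR adjusted p = 1.50e-04). With the libraries of each line summed, where the 3 Cl lines alone give the spread, it was 0.61 (edgeR adjusted p = 0.0129). It passed in each line, with 0.73 in Cl_1, 0.53 in Cl_2 and 0.53 in Cl_3.

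The TCG total averaged 23434 ± 656 CPM in the Cl libraries and 20232 ± 1013 CPM in Ctrl_1 (SD; log2 change 0.21, SE 0.05, edgeR adjusted p = 0.00901). Set beside the single isodecoders, this change includes the 0.13 by which the scaling of the totals lay higher. Under the scaling of the single transcripts, tRNA-Arg-TCG-3 changed by -0.03, tRNA-Arg-TCG-4 by 0.10, tRNA-Arg-TCG-1 by 0.29 and tRNA-Arg-TCG-2 by 0.17. With library totals in place of TMM, the TCG total was 0.18 (edgeR adjusted p = 0.0210). It lost its call without replicate 1 of Ctrl_1 (0.11, edgeR adjusted p = 0.241) and with summed lines (0.20, edgeR adjusted p = 0.0854). It passed in Cl_2 and Cl_3 and not in Cl_1 (0.17, edgeR adjusted p = 0.0520). The ACG total averaged 31769 ± 2047 CPM in the Cl libraries and 35659 ± 2267 CPM in Ctrl_1 and did not pass (log2 change -0.17, SE 0.08, edgeR adjusted p = 0.0997). It passed with library totals in place of TMM (-0.20, edgeR adjusted p = 0.0265) and with the nuclear totals alone (-0.22, edgeR adjusted p = 0.0195). Over all 70 anticodon totals 42.9% were called in the mean of the Cl lines, so 2 of 3 is read against that share. It was 24.3% in Cl_1, 35.7% in Cl_2 and 25.7% in Cl_3.

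As shares of all CGN-reader counts, the ACG tRNAs took 42.7% ± 1.22 over 6 Cl libraries, against 52.0% ± 1.97 over 2 from Ctrl_1, and the CCG tRNAs took 25.8% ± 1.69 and 18.5% ± 0.272 (SD). Neither pair overlapped. The TCG share was 31.5% ± 1.74 in the Cl libraries and 29.5% ± 2.24 in Ctrl_1, with overlapping libraries. The CGN readers together took 7.59% ± 0.187 of nuclear tRNA counts in Cl, against 7.22% ± 0.0741 in Ctrl_1, and 69.5% ± 1.84 against 71.3% ± 3.80 of nuclear tRNA-Arg counts. Of 15 shares tested, the 7 whose groups did not overlap had the smallest p that 6 libraries against 2 allow (exact two-sided permutation test over 28 splits, p = 0.0357), and none passed after Benjamini-Hochberg adjustment over the 15 (adjusted p = 0.0765). With each line as 1 unit, no p below 0.25 was possible. Shares of the same total rise at each other's expense, so these 7 are not independent. How often shares of other tRNAs separated was not counted.

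**Figure D4:**
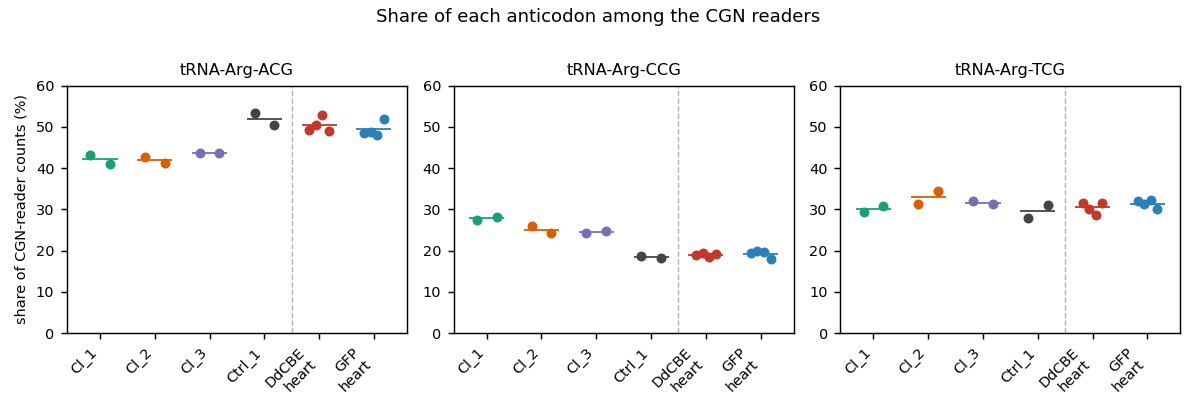
Share of all CGN-reader counts (percent, axes from 0) taken by the ACG, CCG and TCG tRNAs. Points are libraries and bars their means for the MEF lines Cl_1, Cl_2, Cl_3 and Ctrl_1 and, right of the dashed line, for AAV9-DdCBE and AAV9-GFP hearts. The CCG share is 24.2% to 28.2% in the Cl libraries, 18.3% and 18.7% in Ctrl_1 and 18.0% to 19.9% in the hearts.

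Other arginine tRNAs and tRNAs of the same chemistry were read beside these. Of 10 nuclear TCT and CCT isodecoders, the AGR readers, 9 were tested, and 3 were higher and 1 lower in the mean of the Cl lines. Over all transcripts tested these shares were 22.9% and 25.4%. The median log2 change of the AGR readers was 0.17. The CCT total rose by 0.20 (edgeR adjusted p = 0.0234), and the TCT total changed by 0.29 without passing (edgeR adjusted p = 0.163). Of 8 anticodons with adenosine at the first position, the inosine-type set that holds ACG, 1 was higher (tRNA-Val-AAC, 0.27) and 1 lower (tRNA-Pro-AGG, -0.16), with a median change of 0.08, where 13 of all 70 anticodon totals were higher and 17 lower. Mitochondrial tRNA-Arg, the CGN reader of the organelle, was lower in the Cl lines. It had 297 to 424 CPM in the 6 Cl libraries, against 516 and 559 CPM in Ctrl_1 (log2 change -0.68, SE 0.13, edgeR adjusted p = 0.00460). This was not particular to it, since mitochondrial tRNA as a whole took a smaller share of counts in every Cl library than in Ctrl_1. Of all transcripts tested, 51 were lower, 38 of them nuclear, and all 46 called higher were nuclear.

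In the hearts, 4 AAV9-DdCBE against 4 AAV9-GFP, edgeR called 0 of 10 members and 0 of 3 anticodon totals. At an unadjusted p under 0.05 it called 0 members and 0 of the 3 totals as well, and DESeq2 also called 0 of each. The background was 0% of 180 transcripts and 0% of 70 anticodon totals by edgeR. Among all features tested, 35 transcripts and 3 anticodon totals had an unadjusted p under 0.05, and DESeq2 called 27 and 2. The members' median log2 change was -0.22, that of all transcripts tested was -0.10 and that of the nuclear ones was -0.14.

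Among single isodecoders the smallest p was that of tRNA-Arg-CCG-3. It had 2631, 3636, 4650 and 5099 CPM in the AAV9-DdCBE hearts of mice 17, 18, 25 and 26, against 5624, 5193, 5069 and 5479 CPM in the AAV9-GFP hearts of mice 5, 6, 14 and 19. The 10X hearts of mice 17 and 18 were lowest, and the 2X heart lay within the AAV9-GFP range. The change was -0.42 (SE 0.19, edgeR adjusted p = 0.272). tRNA-Arg-CCG-1 had 806, 831, 551 and 596 CPM in the same AAV9-DdCBE hearts, against 427, 452, 747 and 467 CPM in the AAV9-GFP hearts (log2 change 0.41, SE 0.28, edgeR adjusted p = 0.341). The 10X hearts were highest here, and the groups overlapped through mouse 14. The other 8 members had log2 changes between -0.39 and 0.13, with adjusted p of 0.312 or more.

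**Figure D5:**
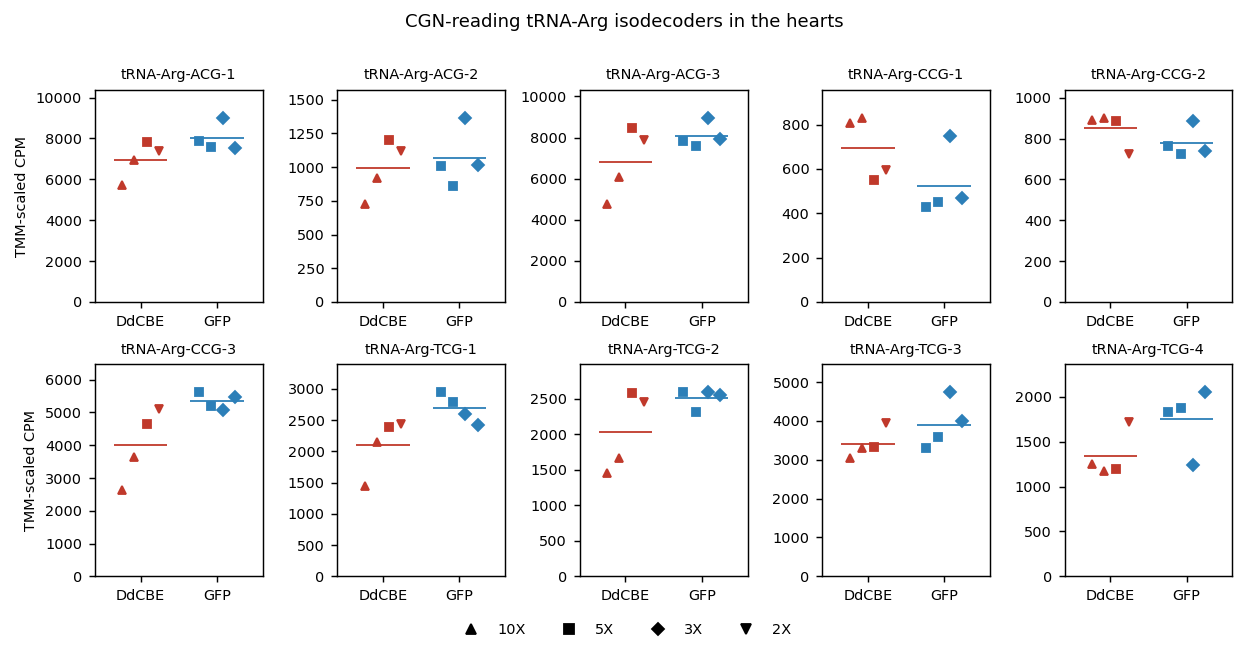
Level of each CGN-reading isodecoder (TMM-scaled CPM, vertical axes from 0) in AAV9-DdCBE hearts (left, red) and AAV9-GFP hearts (right, blue). Each point is 1 mouse, its shape gives the X value of the sample title, and bars are group means. The 10X hearts have the lowest tRNA-Arg-CCG-3 levels, 2631 and 3636 CPM, and the highest tRNA-Arg-CCG-1 levels, 806 and 831 CPM.

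With their own scaling, the anticodon totals differed little between the heart groups. That scaling placed the AAV9-DdCBE hearts 0.21 higher against AAV9-GFP on the log2 scale than the scaling of the single transcripts. Under the scaling of the single transcripts the members' median log2 change was -0.22, so the totals and the isodecoders are not on the same footing. The ACG total averaged 15651 ± 1085 CPM in AAV9-DdCBE and 15986 ± 1961 CPM in AAV9-GFP hearts (log2 change -0.03, SE 0.10, edgeR adjusted p = 0.955). The CCG total averaged 5901 ± 195 and 6188 ± 311 CPM (-0.07, SE 0.06, edgeR adjusted p = 0.837). The TCG total averaged 9454 ± 348 CPM in AAV9-DdCBE and 10118 ± 553 CPM in AAV9-GFP hearts (SD, n = 4 each; -0.10, SE 0.06, edgeR adjusted p = 0.806). The CGN readers took 5.54% ± 0.206 of nuclear tRNA counts in AAV9-DdCBE and 5.66% ± 0.589 in AAV9-GFP hearts. The CCG tRNAs took 19.0% ± 0.448 of CGN-reader counts in AAV9-DdCBE and 19.2% ± 0.843 in AAV9-GFP hearts. Of 15 shares, the smallest p was that of each CCG isodecoder (exact two-sided permutation test, p = 0.0857, adjusted p = 0.429), where 4 hearts against 4 allow 0.0286.

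The 10X AAV9-DdCBE hearts of mice 17 and 18 were set against the 4 AAV9-GFP hearts in a fit of all 8 hearts, a comparison by the X value of the titles that was chosen with earlier results of these data known. No AAV9-GFP heart had the 10X value, so treatment and X value cannot be told apart in this comparison. Here 4 of 10 members were lower and 0 higher. Over all 180 transcripts tested 27.8% were called lower and 23.9% higher. Of the 158 nuclear transcripts among them, 50 were lower and 41 higher, with a median log2 change of -0.31. tRNA-Arg-CCG-3 changed by -0.77 (SE 0.17, edgeR adjusted p = 0.00617) and tRNA-Arg-TCG-2 by -0.69 (SE 0.14, edgeR adjusted p = 0.00489). tRNA-Arg-TCG-2 had 1452 and 1665 CPM in the 10X hearts, against 2598, 2317, 2596 and 2559 CPM in the AAV9-GFP hearts of mice 5, 6, 14 and 19. tRNA-Arg-ACG-3 changed by -0.57 (edgeR adjusted p = 0.0198), with 4769 and 6080 CPM in the 10X hearts and 7572 to 8965 CPM in the AAV9-GFP hearts. tRNA-Arg-TCG-1 changed by -0.58 (edgeR adjusted p = 0.0331), with 1441 and 2149 CPM against 2418 to 2950 CPM. For these 4 members both 10X hearts were below all AAV9-GFP hearts, and so they were for tRNA-Arg-ACG-1, which was not called. For tRNA-Arg-CCG-1 and tRNA-Arg-CCG-2, also not called, both 10X hearts were above all AAV9-GFP hearts. How often other transcripts separated in this way was not counted.

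These calls depended on the scaling and on which control hearts were kept. The median log2 change of all transcripts tested was -0.23 in this fit and -0.04 with DESeq2's size factors, and the members' medians were -0.45 and -0.26. The count of lower members was 2 with DESeq2, 0 with library totals, 2 with the nuclear rows alone and 1 with no filter. It was 0 without the AAV9-GFP heart of mouse 6, 0 without that of mouse 5 and 2 without the 10X heart of mouse 17. The mitochondrial share of counts was 59.9% in the 10X heart of mouse 17 and 44.5% in that of mouse 18, against 37.4% to 43.3% in the AAV9-GFP hearts. The share in mouse 18 was thus close to the highest AAV9-GFP share. Whether the mitochondrial share bears on these calls was not tested. With the nuclear rows alone tRNA-Arg-CCG-3 was -0.50 (edgeR adjusted p = 0.00886) and tRNA-Arg-TCG-2 was -0.41 (edgeR adjusted p = 0.0159). tRNA-Arg-CCG-1 had a change of 0.65 that missed the threshold (SE 0.25, edgeR adjusted p = 0.0567). It passed with DESeq2 (0.83, adjusted p = 0.0112) and without mouse 14 (0.87, edgeR adjusted p = 7.51e-04). Library totals, the nuclear rows alone, no filter and a filter by X value each called some member higher as well, unlike the main fit.

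At the level of anticodons the 10X hearts differed less. The changes were -0.09 for ACG, -0.10 for CCG and -0.13 for TCG (SE 0.13, 0.07 and 0.08), with 0 of 3 called by edgeR, 0 at an unadjusted p under 0.05 and 0 by DESeq2. Over all 70 totals edgeR called 0%, with 15 at an unadjusted p under 0.05 and 13 by DESeq2. The scaling of the totals lay 0.37 higher for the 10X hearts than that of the single transcripts. Within the CCG pool tRNA-Arg-CCG-3 took 60.8% and 67.7% in the 10X hearts of mice 17 and 18, against 82.5%, 81.5%, 75.6% and 81.9% in the AAV9-GFP hearts of mice 5, 6, 14 and 19. tRNA-Arg-CCG-1 took 18.6% and 15.5% in the 10X hearts against 6.26% to 11.1%, and tRNA-Arg-CCG-2 took 20.6% and 16.8% against 11.1% to 13.2%. The 5X and 2X AAV9-DdCBE hearts had tRNA-Arg-CCG-3 shares of 76.4% and 79.4%. Of the 15 shares, 6 did not overlap between 10X and AAV9-GFP hearts, these 3 and those of tRNA-Arg-ACG-1, tRNA-Arg-ACG-3 and tRNA-Arg-TCG-2. Each had the smallest p that 2 hearts against 4 allow (exact permutation test over 15 splits, p = 0.0667), and none passed after adjustment over the 15 (adjusted p = 0.167). Those of the same anticodon are not independent, and separation of shares of other tRNAs was not counted. Against the 5X and 2X AAV9-DdCBE hearts, 3 members were lower in the 10X hearts, tRNA-Arg-ACG-3 (-0.59), tRNA-Arg-CCG-3 (-0.64) and tRNA-Arg-TCG-2 (-0.69), where 10.6% of all transcripts tested were called lower. That comparison shares its 10X hearts with the one above and sets them against a single heart at each of 5X and 2X. Its median log2 change was -0.15 over all transcripts tested, -0.28 over the nuclear ones and -0.35 over the members. It was not repeated with other scalings or with a heart left out.

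Mitochondrial tRNA-Arg had 7518 and 4178 CPM in the 10X hearts, 3466 and 5129 CPM in the 5X and 2X AAV9-DdCBE hearts and 3161 to 6343 CPM in the AAV9-GFP hearts. Its change in the 4 AAV9-DdCBE hearts was 0.02 (SE 0.27, edgeR adjusted p = 0.95). Of the 9 AGR readers tested in the hearts, 0 were called in the comparison of 4 with 4. In the 10X hearts 3 were higher and 3 lower, against 23.9% and 27.8% over all transcripts. Of the 8 inosine-type anticodons 0 were called in either.

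The hearts and MEFs were counted in separate tables, so their values are set side by side without a test. The CGN readers took 5.24% to 6.52% of nuclear tRNA counts in the 8 hearts and 7.17% to 7.82% in the 8 MEF libraries. tRNA-Arg-CCG-3 took 60.8% to 82.5% of CCG counts in the hearts and 43.8% to 64.4% in the MEFs, and tRNA-Arg-CCG-2 took 11.1% to 20.6% and 25.0% to 40.3%. Within the TCG tRNAs, tRNA-Arg-TCG-1 took 20.0% to 27.6% in the hearts and 11.6% to 16.1% in the MEFs, and tRNA-Arg-TCG-4 took 11.1% to 18.6% and 22.0% to 28.2%. tRNA-Arg-TCG-3 was the largest TCG isodecoder in all 16 libraries. Within the ACG tRNAs tRNA-Arg-ACG-1 and tRNA-Arg-ACG-3 each took 42.2% to 51.8% in every library, and tRNA-Arg-ACG-2 took 3.79% to 7.06%.

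Across libraries the anticodon totals were set against the other 45 nuclear anticodon totals, as a description over 8 libraries that share groups and scaling. In the MEFs the ACG total was most like tRNA-Gly-TCC (Pearson r of log2 CPM 0.885) and tRNA-Lys-TTT (0.845), the CCG total most like tRNA-Ser-CGA (0.965) and tRNA-Asn-GTT (0.920), and the TCG total most like tRNA-Val-AAC (0.939) and tRNA-Trp-CCA (0.886). Among themselves the CCG and TCG totals had r = 0.744, and ACG had r = -0.460 with CCG and -0.677 with TCG. In the hearts the ACG total was most like tRNA-Leu-AAG (0.959) and tRNA-Gln-CTG (0.947) among these other totals. The CCG total was most like tRNA-Val-TAC (0.80) and tRNA-Leu-TAG (0.799), and the TCG total most like tRNA-Lys-TTT (0.691) and tRNA-Val-TAC (0.683). Between the heart CCG and TCG totals r was higher than these last values, at 0.809. ACG had r = 0.721 with CCG and 0.568 with TCG there, both positive where the MEF values were negative.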

How the data were processed

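The authors deposited raw counts per tRNA transcript in 1 table for 8 MEF libraries and 1 for 8 hearts. Per the labels' protocols, total RNA was oxidised and beta-eliminated and made into mim-tRNAseq libraries, and the submitters' processing notes name cutadapt 3.5 and the build mm39. The rule by which reads were divided between near-identical isodecoders is not given in the sources used here. All columns were assigned to samples by name.

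The members and lists were chosen with earlier results of these data known. Each table was filtered with filterByExpr (minimum count 10, minimum total 15), scaled by TMM and tested with edgeR 4.0.16 (R 4.3.3), with Benjamini-Hochberg adjustment over all transcripts tested and a threshold of 0.05. The 8 MEF libraries were fitted by line, and the 8 hearts by treatment or by treatment and X value. The SE is the log2 change divided by the square root of F. Counts summed per anticodon were scaled and tested in the same way, 70 totals in each table. Shares of counts were compared by exact permutation tests, with 95% Wilson intervals that cover counting error only. DESeq2 1.42.0, other scalings and filters, a replicate block, summed lines and leaving out each library were alternatives. All members, the AGR readers, the inosine-type anticodons, mitochondrial tRNA-Arg and the 2 most alike totals were named by rule. On simulated counts with 201 MEF transcripts, 88.8% of 2-fold changes were recovered, and with 180 heart transcripts 61.2% in the comparison of 4 with 4 and 82% in that of 10X with AAV9-GFP hearts. Of the calls at 2-fold, 5.08%, 3.16% and 6.55% were false in these comparisons, in the same order. Changes smaller than 2-fold were not simulated. No 2 replicates were alike within sampling noise.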

Additional observations from a re-analysis of the deposited data

Results flagged for a closer look

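Among the hearts, 58 sets of 4 values were checked for a sample far from the other 3, which chance alone gives in about 1 in 20. Levels and shares come from the same counts, so these sets are not independent. Whether more were flagged than chance gives was not tested. In the AAV9-DdCBE group, the heart of mouse 26 was far below the other 3 for tRNA-Arg-CCG-2 (724 CPM) and far above them for tRNA-Arg-TCG-4 (1725 CPM). In the AAV9-GFP group, the heart of mouse 14 was far above the others for tRNA-Arg-CCG-1 (747 CPM). Its CCG pool stood apart too, with the highest tRNA-Arg-CCG-2 share (13.2%) and the lowest tRNA-Arg-CCG-3 share (75.6%) of the group. The AAV9-GFP heart of mouse 6 was far below the others for tRNA-Arg-TCG-2 (2317 CPM). In the MEFs, the change against Ctrl_1 differed among the 3 Cl lines for tRNA-Arg-CCG-2 (edgeR F test, adjusted p = 0.0134) and tRNA-Arg-TCG-2 (edgeR F test, adjusted p = 0.0401).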

How the results depend on the processing

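In the MEFs the CCG total and tRNA-Arg-CCG-3 kept their direction and call under every alternative run. The members called higher were 2 with nuclear rows alone, 1 with summed lines and 1 to 3 when a library was left out, and those called lower were 3 with nuclear rows (tRNA-Arg-CCG-2 added, -0.14), 0 with summed lines and 1 to 2 with a library left out. The ACG total was -0.20 with library totals and -0.22 with nuclear rows (both past the threshold), and -0.23 to -0.15 with a library left out, past it without replicate 1 of Cl_1 and without replicate 1 of Cl_2 (edgeR adjusted p = 0.0216 and 0.0452). The TCG total was 0.20 with summed lines and 0.11 to 0.29 with a library left out. With a replicate block, all 15 MEF values kept their direction and call (tRNA-Arg-CCG-3 0.93, CCG total 0.60). Same-numbered deviations correlated at 0.0698 to 0.248 over 6 pairs of lines, all above 0 and 4 of them above 0.1. The numbers were not used as pairs, since the labels name no shared batch and not every correlation passed 0.1. Over all MEF transcripts, 46 were higher and 51 lower, 51 and 54 with the block, 61 and 35 with library totals, 5 and 4 with summed lines, and as few as 30 and 29 without replicate 1 of Ctrl_1.

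Values near 0 changed sign. With library totals tRNA-Arg-CCG-1 was 0.056, tRNA-Arg-CCG-2 0.033 and tRNA-Arg-TCG-3 0.075 in the Cl lines. With a library left out tRNA-Arg-CCG-1 was -0.12 to 0.022, tRNA-Arg-TCG-3 -0.059 to 0.0036 and tRNA-Arg-TCG-4 -0.050 to 0.25. The Cl minus Ctrl_1 difference in percentage points was -4.46 to 0.906 for the CGN share of nuclear tRNA-Arg, -1.49 to 0.0811 for the tRNA-Arg-ACG-3 share and -1.15 to 1.98 for the tRNA-Arg-TCG-4 share, each end set by leaving out 1 of the Ctrl_1 libraries. The last was also negative without replicate 1 or 2 of Cl_1 (-0.179 and -0.182).

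In the comparison of 4 hearts with 4, no member or total was called under any alternative. DESeq2 called 27 transcripts, library totals 14, and the fits without mouse 25 or 26 called 18 and 30 higher. The ACG total was -0.099 to 0.059 with a heart left out, and 0.028 without mouse 17. tRNA-Arg-ACG-2 was 0.016 with nuclear rows, 3.41e-05 with no filter and -0.12 to 0.043 with a heart left out. With a heart left out, the share differences that changed sign ran over -0.573 to 0.0714 points for CCG in CGN readers (0.0362 with the 10X hearts alone), -0.257 to 0.172 for CGN readers in nuclear counts, -0.123 to 1.92 for tRNA-Arg-ACG-1 and -2.004 to 0.384 for tRNA-Arg-TCG-2.

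For the 10X hearts the members called lower and higher were 2 and 1 with DESeq2, 0 and 1 with library totals, 2 and 2 with nuclear rows, 1 and 1 with no filter, and 2 and 1 with a filter by X value, an alternative chosen after seeing the data. With a heart left out 0 to 5 were lower and 0 to 1 higher. Over all transcripts 43 were higher and 50 lower, and lower calls were 23, 9, 18, 11 and 12 under those settings in the same order. The cause of these changes was not tested.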
